A study of Mus musculus with 13 samples.

Results

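The genes described here are those of the proteasome and the immunoproteasome, taken as the genes of the count table whose symbol starts with Psm, one of the letters a to g and a digit, without pseudogene symbols and with a summed count above 130 over all libraries. This rule took 49 of the 54513 genes in the table. Of 51 matching symbols, 2 fell below the minimum: Psma8, a testis form of an alpha subunit, with 97 counts, and Psmb11, the catalytic subunit of thymic epithelium, with 16. The lowest summed count among the members was 574, for the assembly chaperone Psmg3. All 49 members passed the filter on low counts and were tested. A pair of them are not subunits, although their symbols match: Psmc3ip, a meiotic recombination factor, and Psme3ip1, a protein that binds Psme3. Psme2b is an intronless copy of Psme2, and reads from the pair may have been split between them, so both values are uncertain.

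The 26S proteasome is the protease complex that degrades ubiquitin-tagged proteins in the cytosol and nucleus. Its barrel, the 20S core, is built from rings of alpha subunits (Psma genes), which gate the entry, and rings of beta subunits (Psmb genes), 3 of which carry the proteolytic sites. The 19S cap (ATPases of the Psmc genes and non-ATPases of the Psmd genes) binds, unfolds and feeds in the substrate. Leukocytes, and other cells exposed to interferon-gamma, swap the catalytic subunits Psmb5, Psmb6 and Psmb7 for Psmb8, Psmb9 and Psmb10, which gives the immunoproteasome, a form known for producing peptides that fit MHC class I molecules. The PA28 activator made of Psme1 and Psme2 is induced alongside it and can replace the 19S cap.

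Total RNA of formalin-fixed, paraffin-embedded lungs from male C57Bl/6 mice aged 7 to 8 weeks was sequenced at day 21 after bleomycin, a DNA-damaging drug that injures the alveoli and is used to model lung fibrosis, or after saline. Batch 1 held bleomycin replicates 5 to 8 and all 5 saline libraries, while batch 2 held bleomycin replicates 1 to 4. A slice of 10 µm gave the RNA, 8 ng of which went into a library, and the labels give no dose or route. The labels number the replicates without stating that they are different animals, so the p-values cover the spread between these samples, which may be technical. Changes are log2 ratios of bleomycin over saline within batch 1 from edgeR's quasi-likelihood test over 20468 genes, with Benjamini-Hochberg adjustment over all of them. A gene was called at an adjusted p under 0.05. Levels are CPM, counts scaled to a common library total with the TMM factor, and ± is the SD.

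Library totals spanned 21727502 to 28885129 counts for batch 1 bleomycin, 6337147 to 12982422 for batch 2 bleomycin and 9527580 to 26043735 for saline. Bleomycin replicate 8 has a title that says control, while its treatment label and library name say bleomycin, and it was kept as bleomycin. The lung epithelial markers Sftpc, Sftpb, Ager, Scgb1a1 and Epcam summed to 3915 to 5927 CPM in batch 1 bleomycin, 4829 to 11470 in the batch 2 bleomycin libraries and 10180 to 17230 in saline libraries. Heart and skeletal muscle transcripts were present at uneven levels. The heart markers Myh6, Nppa and Actc1 summed to 436.6 to 3181 CPM in batch 1 bleomycin, 68.42 to 2301 CPM in batch 2 bleomycin and 469.5 to 724.6 CPM in saline libraries. The skeletal muscle markers Acta1, Ckm and Mylpf reached 197.8, 358 and 1390 CPM at most in the same sets, and thymus genes reached 2.101, 6.931 and 12.41 CPM. None of these 3 marker lists had a called gene by edgeR. Of the endothelial markers 1 of 3 fell, of the lung epithelial markers 4 of 5 fell, and of the red blood cell markers 1 of 3 rose (Alas2). Of all tested genes 13.4% fell and 17.5% rose. The part of these lists in the results was not tested. The library names number the bleomycin and saline samples of batch 1 in separate runs, so anything that differed between those runs cannot be told apart from treatment.

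The promoters shown here belong to the subunits on which the results turn. RefSeq promoter windows (build GRCm38.p6, 250 bases before to 50 after the start site) were found for 42 of the 49 members. Psmb9 and the peptide transporter gene Tap1 are transcribed in opposite directions from start sites separated by 225 bases on chromosome 17, so both share this stretch as their promoter (chr17:34187331-34187555, forward strand, the direction of Tap1). Psmb8 starts downstream of Tap1 on the same chromosome, and its 120 bases before the start site (chr17:34198075-34198194, forward strand) are printed with a gamma-activated site in capitals, the STAT motif TTCNNNGAA. For the constitutive counterparts Psmb5 (chr14:54617996-54618115, reverse strand) and Psmb6 (chr11:70525237-70525356, forward strand), the capitals mark the antioxidant response element core TGACNNNGC.
Psmb9-Tap1 interval: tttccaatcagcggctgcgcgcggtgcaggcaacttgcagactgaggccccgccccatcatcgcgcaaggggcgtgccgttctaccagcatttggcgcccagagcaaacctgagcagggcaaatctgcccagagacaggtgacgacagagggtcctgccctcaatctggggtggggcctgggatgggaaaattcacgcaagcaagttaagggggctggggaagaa
Psmb8: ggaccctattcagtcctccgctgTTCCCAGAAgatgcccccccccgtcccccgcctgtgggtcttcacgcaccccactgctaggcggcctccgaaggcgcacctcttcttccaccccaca
Psmb5: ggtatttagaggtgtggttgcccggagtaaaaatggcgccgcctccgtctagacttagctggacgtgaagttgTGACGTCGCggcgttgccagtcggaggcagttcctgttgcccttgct
Psmb6: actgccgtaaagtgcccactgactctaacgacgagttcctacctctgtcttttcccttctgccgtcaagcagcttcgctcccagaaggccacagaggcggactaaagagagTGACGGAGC

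The motifs were searched on both strands over the whole windows. A member counted if any of its windows matched, while the share of promoters is per window, so the units differ. The gamma-activated site was found in 3 of 42 members (7.14%; Psmb8, Psmd2 and Psmg1), against 8.3% of 32851 promoters. The interferon-stimulated response element core, GAAA repeated after any 2 bases, was found in 5 of 42 members (11.9%; Psmb3, Psmd4, Psmd9, Psme1 and Psmg4), against 3.44% of promoters. In Psme1 it lay 10 to 19 bases downstream of the start site, as TTTCGCTTTC on the forward strand. The antioxidant response element core was found in 6 of 42 members (14.3%; Psmb5, Psmb6, Psmc6, Psmd12, Psmd9 and Psme4), against 12.4% of promoters. The interval between Psmb9 and Tap1 held none of these 3 letter patterns. A match describes the letters only.

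Of the 49 members, 18 rose (36.7%) and 0 fell by edgeR in batch 1 bleomycin, where 17.5% of all tested genes rose and 13.4% fell. Among the 13745 genes within the members' range of mean level, 2.55 to 121 CPM, 20.7% rose and 13.8% fell. The members' median log2 change was 0.25 (range -0.18 to 1.05), against 0.03 over all tested genes, and 44 of 49 had a positive value. No member had an unadjusted p under 0.05 in the lower direction, and DESeq2 and limma-voom also called 0 lower. The count depended on single libraries: 10 members rose without bleomycin replicate 6, 9 without bleomycin replicate 8 and 11 without saline replicate 2. Over all tested genes 3004, 2863 and 2919 rose in these fits, in the same order, against 3586 with all libraries. Part of the drop was therefore general. Leaving aside the 5 inducible genes, 14 of 44 members rose (31.8%), with a median of 0.24. The genes called in all 21 alternatives were Psmb8, Psmb9, Psme1, Psmb5, Psma4, Psmd3, Psmd8 and Psmd13.

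**Figure D1:**
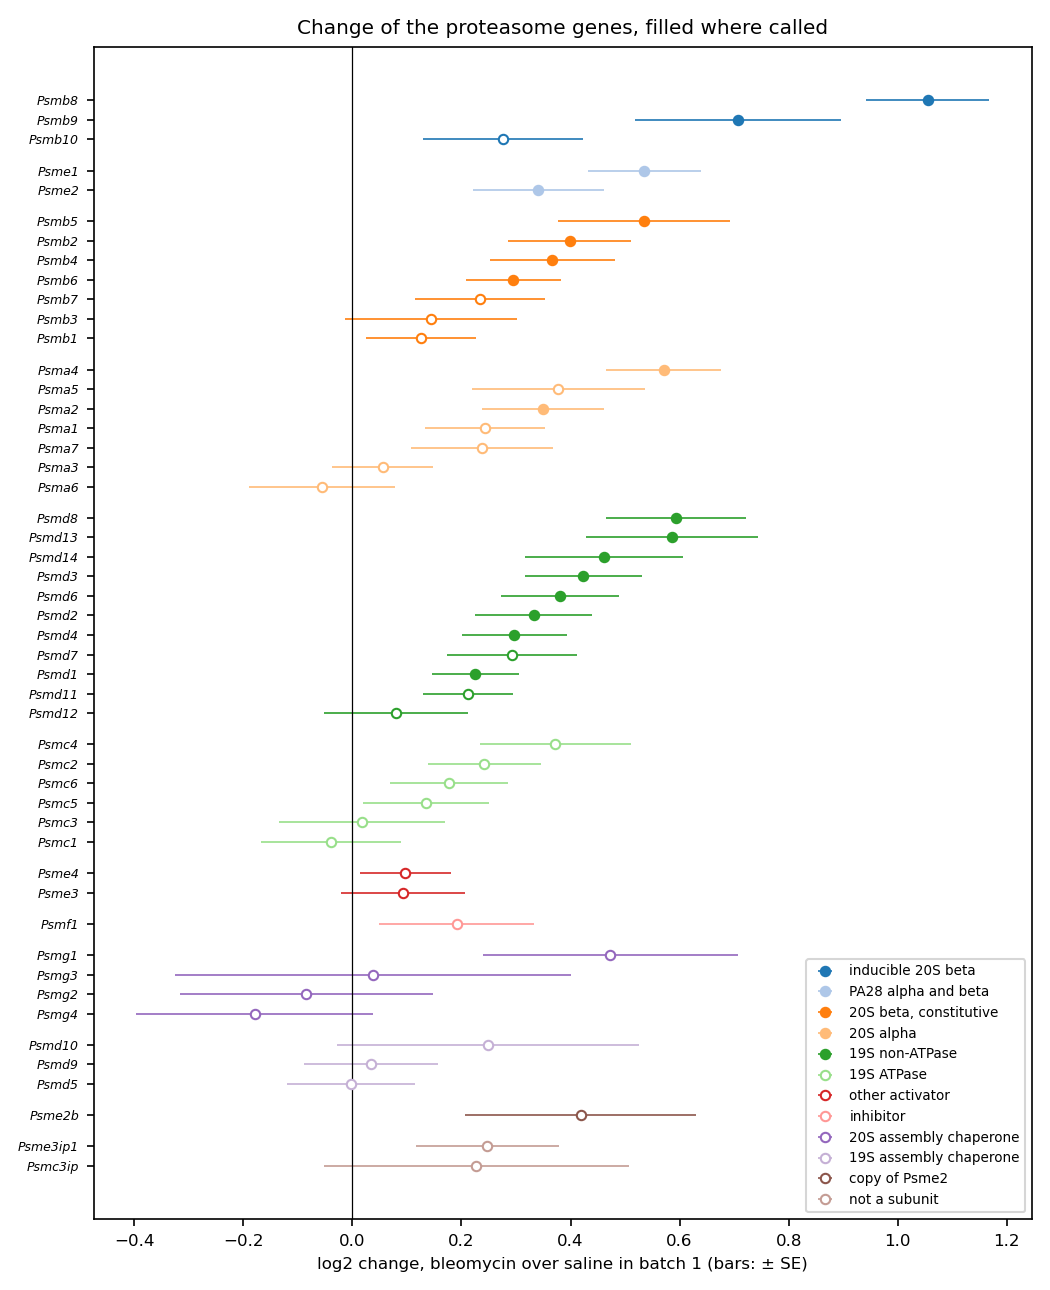
Log2 change of bleomycin over saline in batch 1 (horizontal axis) with its SE for the 49 members, grouped by role and filled where the adjusted p was under 0.05. Psmb8 stands farthest to the right at 1.05, most core subunits lie between 0 and 0.59, and the ATPases and assembly chaperones are all open.

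Psmb8, the inducible subunit that takes the place of the chymotrypsin-like subunit Psmb5, had 45.40, 53.13, 66.13 and 47.94 CPM in bleomycin replicates 5 to 8, against 25.79, 28.53, 27.15, 22.38 and 24.12 CPM in saline replicates 1 to 5. Every bleomycin library lay above every saline library, and replicate 7 was the highest. The change was 1.05 (SE 0.11, adjusted p = 8.01e-06), a 2.08-fold difference. In batch 2 bleomycin Psmb8 stood at 52.64, 52.74, 49.62 and 51.99 CPM, also above all saline libraries. Between the bleomycin batches it differed by -0.04 (SE 0.12, adjusted p = 0.925).

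Psmb9, which replaces Psmb6, had 16.15, 16.08, 21.65 and 11.54 CPM in bleomycin replicates 5 to 8, against 11.93, 6.73, 9.85, 9.68 and 11.62 CPM in saline replicates 1 to 5. The groups overlapped, because bleomycin replicate 8 fell below saline replicates 1 and 5. The change was 0.71 (SE 0.19, adjusted p = 0.00935), and 0.81 without replicate 8 (adjusted p = 0.00408; range over all alternatives 0.00124 to 0.0457). It was smaller without bleomycin replicate 7 (0.54, adjusted p = 0.0457) and without saline replicate 2 (0.56, adjusted p = 0.0294). Batch 2 bleomycin libraries held 17.55 to 22.85 CPM, all above saline. Tap1, which shares the promoter interval printed above, had 45.81, 54.79, 67.19 and 66.55 CPM in bleomycin replicates 5 to 8, against 28.77, 31.08, 35.39, 25.33 and 24.49 CPM in saline (log2 change 1.01, SE 0.14, adjusted p = 6.9e-05). Tap1 lay above all saline libraries in every batch 1 bleomycin library, while Psmb9 in replicate 8 lay within the saline range.

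Psmb10, which replaces Psmb7, did not pass. It had 13.10, 14.10, 15.23 and 15.28 CPM in bleomycin replicates 5 to 8 and 10.87, 12.64, 13.32, 12.88 and 9.86 CPM in saline (log2 change 0.28, SE 0.15, adjusted p = 0.167). Batch 2 bleomycin libraries held 23.91, 21.02, 15.89 and 17.43 CPM, above all saline libraries. The difference between the bleomycin batches was 0.44 (SE 0.16), with an unadjusted p of 0.0128 and an adjusted p of 0.185. Psmb10 passed when all 8 bleomycin libraries were set against saline without a batch term (0.50, adjusted p = 0.0174; range over all alternatives 0.0174 to 0.346), a fit in which batch and treatment are mixed.

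Both PA28 genes rose. Psme1, the alpha chain of the activator, had 66.33, 64.72, 82.11 and 90.76 CPM in bleomycin replicates 5 to 8, against 57.58, 55.43, 53.13, 46.82 and 49.13 CPM in saline replicates 1 to 5, with no overlap (log2 change 0.54, SE 0.10, adjusted p = 0.00118). Psme2, the beta chain, had 31.02, 38.37, 39.05 and 35.47 CPM, against 30.73, 22.50, 28.57, 28.91 and 31.11 CPM in saline (0.34, SE 0.12, adjusted p = 0.0403). Bleomycin replicate 5 lay within the saline range for Psme2, and this call held in 9 of 21 alternatives. It was lost without any 1 of bleomycin replicates 3, 6, 7 and 8 and saline replicates 2, 3 and 4 (adjusted p over all alternatives 0.0163 to 0.152). In batch 2 bleomycin Psme1 stood at 83.70 to 91.46 CPM and Psme2 at 31.19 to 41.11 CPM, both above all saline libraries. The copy Psme2b averaged 6.69 ± 1.40 CPM in batch 1 bleomycin and 4.98 ± 0.88 CPM in saline (0.42, adjusted p = 0.148).

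Markers of leukocytes, cells that carry immunoproteasomes without stimulation, were also higher in batch 1 bleomycin. All 5 leukocyte markers (Ptprc, Cd53, Coro1a, Laptm5 and Cd52) rose, with a median log2 change of 1.46, and none was at 0 in every library. Their summed level was 482.1 to 662.2 CPM in batch 1 bleomycin, 482.1 to 585 CPM in batch 2 bleomycin and 198.2 to 264 CPM in saline. Among the batch 1 bleomycin libraries, replicate 7 had the highest leukocyte sum and the highest Psmb8 and Psmb9. Replicate 8 had a higher leukocyte sum than replicate 5 (587.6 and 482.1 CPM) with the lowest Psmb9 and with the highest Psmb10 and Psme1, so the order of the libraries differed between these genes. Macrophage markers rose for 4 of 5, T cell markers for 2 of 6 and B cell markers for 4 of 4, where 17.5% of all tested genes rose. Their part in the result was not tested, and in bulk tissue more cells of a type and more RNA per cell cannot be told apart.

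**Figure D2:**
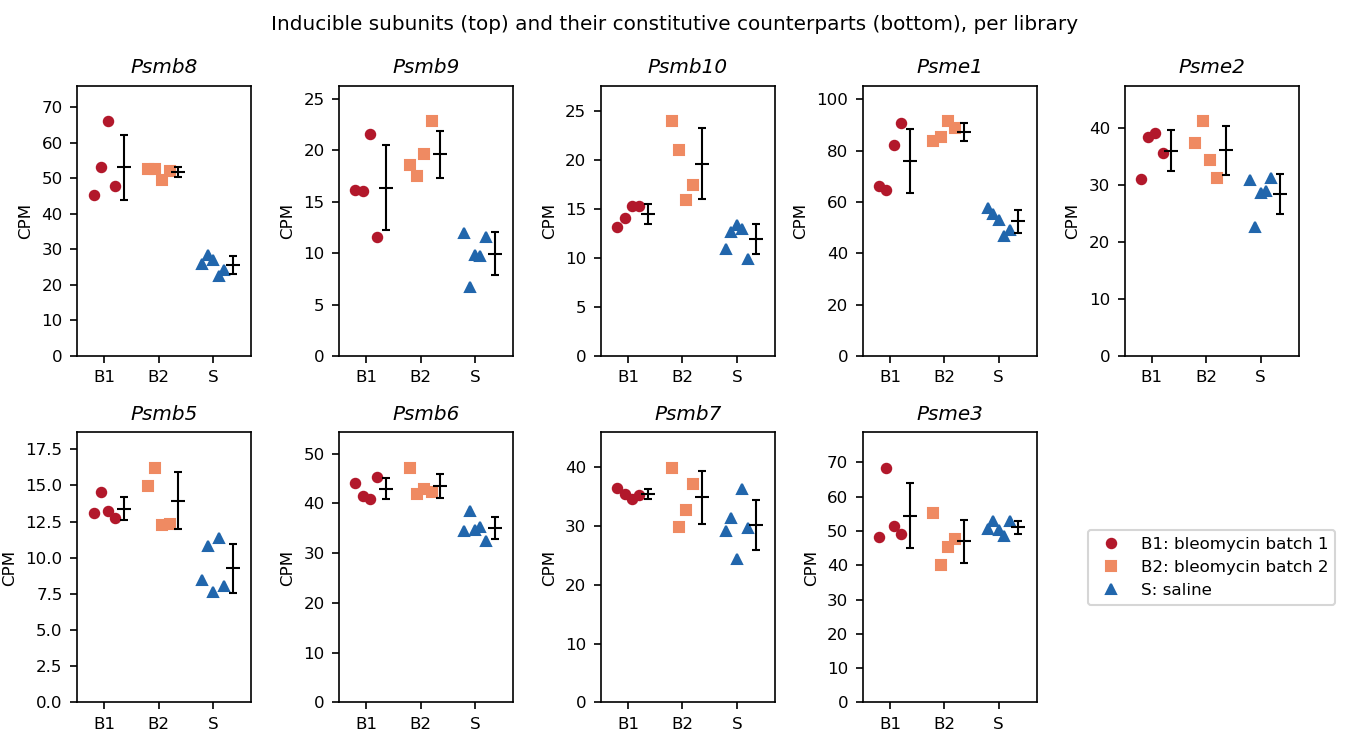
CPM (vertical axis, from 0) of the 5 inducible genes and their 4 constitutive counterparts in every library, with the mean and SD beside the points; B1, batch 1 bleomycin (n = 4); B2, batch 2 bleomycin (n = 4); S, saline (n = 5). Psmb8, Psme1, Psmb5 and Psmb6 separate from saline in both batches. Psmb9, Psmb10 and Psme2 overlap saline in batch 1 only, and Psmb7 and Psme3 overlap it in both batches.

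Of the 3 constitutive catalytic subunits, 2 rose. Psmb5 had 13.06, 14.51, 13.23 and 12.72 CPM in bleomycin replicates 5 to 8, against 8.48, 10.78, 7.66, 11.38 and 8.02 CPM in saline, with no overlap (log2 change 0.54, SE 0.16, adjusted p = 0.017). Psmb6, the caspase-like subunit, had 44.12, 41.56, 40.78 and 45.26 CPM, against 32.36 to 38.50 CPM in saline, again apart (0.29, SE 0.09, adjusted p = 0.0173). The Psmb6 call was lost without any 1 of bleomycin replicates 3 and 8 and saline replicate 4 (adjusted p over all alternatives 0.00484 to 0.0712). Psmb7, the trypsin-like subunit, had 34.48 to 36.42 CPM in batch 1 bleomycin and 24.34 to 36.27 CPM in saline and did not pass (0.23, SE 0.12, adjusted p = 0.148). Psme3, the nuclear homologue of the PA28 chains, had 48.37, 68.44, 51.56 and 49.20 CPM in bleomycin and 48.46 to 52.81 CPM in saline (0.09, SE 0.11, adjusted p = 0.577).

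The ratio of an inducible gene to its counterpart within a library does not depend on the scaling between libraries. The Psmb8 to Psmb5 ratio was 3.48, 3.66, 5.00 and 3.77 in bleomycin replicates 5 to 8, and 3.04, 2.65, 3.54, 1.97 and 3.01 in saline replicates 1 to 5. Saline replicate 3 lay within the bleomycin range. The mean log2 ratio was 1.98 ± 0.24 in batch 1 bleomycin (n = 4) and 1.48 ± 0.32 in saline (n = 5), a difference of 0.50 (exact two-sided permutation p = 0.0238, adjusted p = 0.119 over 5 pairs, where 0.00794 is the smallest p that 4 against 5 libraries allow). The Psmb9 to Psmb6 ratio was 0.255 to 0.531 in the batch 1 bleomycin libraries and 0.175 to 0.359 in saline (difference 0.41, exact permutation p = 0.214, adjusted p = 0.268). The Psmb10 to Psmb7 ratio was 0.360 to 0.442 in the batch 1 bleomycin libraries and 0.333 to 0.547 in saline (difference 0.04, exact permutation p = 0.849). For the activator, Psme1 to Psme3 was 0.946 to 1.84 in the batch 1 bleomycin libraries and 0.930 to 1.14 in saline (difference 0.45, exact permutation p = 0.0556, adjusted p = 0.139). Psme2 to Psme3 was 0.561 to 0.757 in the batch 1 bleomycin libraries and 0.426 to 0.606 in saline (difference 0.27, exact permutation p = 0.0952, adjusted p = 0.159). No ratio passed after adjustment, so a change of the inducible genes beyond that of their counterparts was not shown at this number of libraries. Without bleomycin replicate 6, the library with the highest Psme3, both Psme3 ratios passed. The differences were 0.63 for Psme1 and 0.35 for Psme2 (exact permutation p = 0.0179, the smallest possible with this library left out, and adjusted p = 0.0446 for each). This library held the lowest value of both ratios in its set, so leaving it out raises both differences by construction. Over all alternatives the adjusted p was 0.0446 to 0.286 for Psme1 to Psme3 and 0.0446 to 0.417 for Psme2 to Psme3. In batch 2 bleomycin, which has no saline library of its own, the ratios were 3.25 to 4.23, 0.394 to 0.542, 0.470 to 0.705, 1.52 to 2.13 and 0.655 to 1.03 for these 5 pairs.

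**Figure D3:**
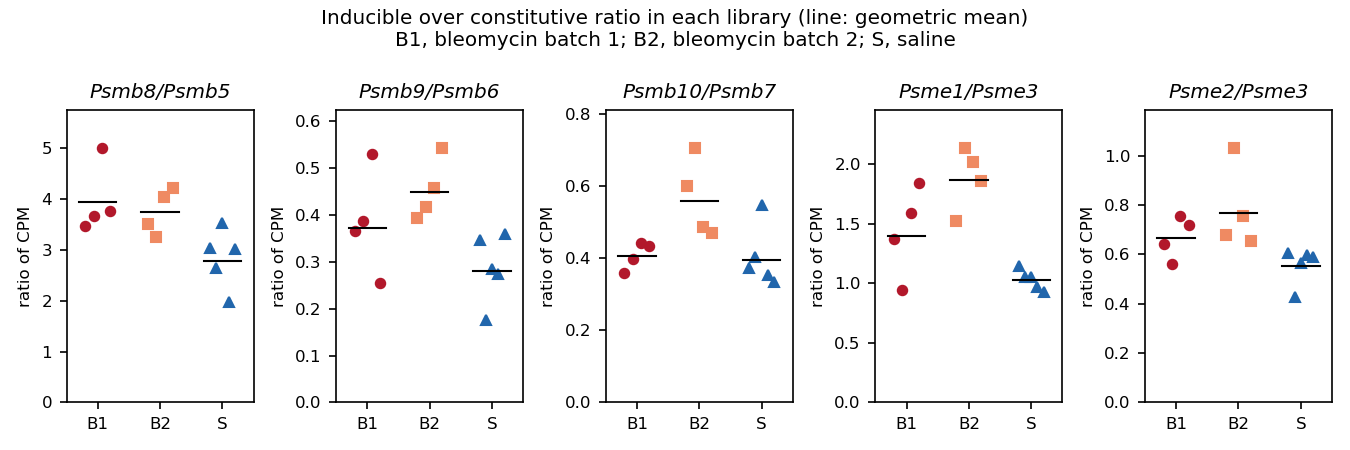
Ratio of CPM of each inducible gene to its constitutive counterpart (vertical axis, from 0) in every library, with the geometric mean as a line. Groups overlap in batch 1 for all 5 pairs, and the batch 2 values of Psmb9/Psmb6, Psme1/Psme3 and Psme2/Psme3 lie above all saline values.

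Levels between genes were compared per length, as CPM per kilobase of annotated exons. The lengths join the exons of all annotated forms of a gene. They were 3381 bases for Psmb8, 899 for Psmb5, 3660 for Psmb9 and 1872 for Psmb6. Which forms were expressed was not tested, so the order of genes per kilobase rests on these lengths. In CPM, Psmb8 lay above Psmb5 in every library. In batch 1 bleomycin, Psmb8 stood at 15.7 CPM per kilobase and its counterpart Psmb5 at 14.9. In saline these levels were 7.57 for Psmb8 and 10.3 for Psmb5. Psmb9 was at 4.47 CPM per kilobase in batch 1 bleomycin and 2.72 in saline, below Psmb6 at 22.9 in batch 1 bleomycin and 18.7 in saline. Of the 48 members with a length, the ATPase Psmc1 had the highest level in saline, 33.2 CPM per kilobase, and Psmg3 the lowest, 0.797. In batch 1 bleomycin, Psme1 was highest at 34.4 and Psmg3 lowest at 0.826.

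The other beta subunits are structural. Psmb2 rose, with 25.15 to 35.15 CPM in batch 1 bleomycin and 20.65 to 24.81 in saline (log2 change 0.40, SE 0.11, adjusted p = 0.0136). Psmb4 rose as well (0.37, SE 0.11, adjusted p = 0.0222). The Psmb2 call was lost without bleomycin replicate 7 (0.31, adjusted p = 0.0584; range over all alternatives 0.00876 to 0.186), and the Psmb4 call without any 1 of bleomycin replicates 6, 7 and 8 and saline replicates 1 and 2 (0.00329 to 0.0743). Psmb1 and Psmb3 did not pass, at 0.13 and 0.14. In all, 4 of 7 constitutive beta subunits rose (57.1%, where 17.5% of all tested genes did), with a median of 0.29.

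Among the 7 alpha subunits, 2 rose (28.6%, where 17.5% of all tested genes did) and the median was 0.24. Psma4 had the lowest p of the core: 41.16, 46.95, 44.40 and 55.90 CPM in bleomycin replicates 5 to 8, against 33.63, 31.77, 30.25, 32.05 and 30.82 CPM in saline, with no overlap (log2 change 0.57, SE 0.11, adjusted p = 0.000738). In batch 2 bleomycin it held 42.03 to 53.64 CPM, again above saline. Psma2 rose by 0.35 (SE 0.11, adjusted p = 0.0265), a call that held in 10 of 21 alternatives. It was lost without any 1 of bleomycin replicates 3, 6, 7 and 8 and saline replicates 1, 2, 4 and 5 (adjusted p over all alternatives 0.0124 to 0.0946). Psma6 was at -0.06 and Psma3 at 0.06, and Psma1, Psma5 and Psma7 lay between 0.24 and 0.38 without passing.

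Of the 11 19S non-ATPases, 8 rose (72.7%, where 17.5% of all tested genes did), with a median log2 change of 0.33 and all 11 values positive. Psmd8, a lid subunit, had 42.68, 63.37, 61.21 and 68.54 CPM in bleomycin replicates 5 to 8, against 41.05, 38.04, 36.93, 40.54 and 38.76 CPM in saline (0.59, SE 0.13, adjusted p = 0.00257). Psmd13, also of the lid, had 25.13, 45.35, 35.15 and 41.56 CPM, against 26.51, 23.19, 25.54, 28.72 and 18.46 CPM in saline (0.59, SE 0.16, adjusted p = 0.0105). Psmd3, a lid scaffold, had 44.45 to 62.08 CPM in batch 1 bleomycin and 36.18 to 42.91 in saline (0.42, SE 0.11, adjusted p = 0.0072). For Psmd8 and Psmd13, replicate 5 was the lowest bleomycin library and, for Psmd13, lay within the saline range.

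The deubiquitinase of the lid, Psmd14, rose by 0.46 (SE 0.15), the lid subunit Psmd6 by 0.38 (SE 0.11) and the base scaffolds Psmd2 and Psmd1 by 0.33 (SE 0.11) and 0.22 (SE 0.08). Psmd1 was at an adjusted p of 0.0418, and its call held in 6 of 21 alternatives (adjusted p over all alternatives 0.019 to 0.17). The ubiquitin receptor Psmd4 rose by 0.30 (SE 0.10, adjusted p = 0.0282). Psmd7, Psmd11 and Psmd12 did not pass, at 0.29, 0.21 and 0.08. Without bleomycin replicate 8 the calls of Psmd1, Psmd2, Psmd4, Psmd6 and Psmd14 were lost, as they were without bleomycin replicate 6. Without saline replicate 2 those of Psmd1, Psmd2, Psmd4 and Psmd14 were lost. Other libraries ended the calls of Psmd1 (bleomycin replicates 2 and 3, saline replicates 1, 3, 4 and 5), Psmd2 and Psmd4 (bleomycin replicate 3, saline replicate 5), Psmd2 (saline replicate 3) and Psmd14 (bleomycin replicate 7, saline replicate 3). Over all alternatives the adjusted p reached 0.148 for Psmd2, 0.13 for Psmd4, 0.0571 for Psmd6 and 0.0926 for Psmd14.

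The 6 ATPases that form the motor of the cap gave 0 calls by edgeR, DESeq2 and limma-voom, with 2 unadjusted p under 0.05 (Psmc2 and Psmc4). By edgeR 17.5% of all tested genes rose and 13.4% fell, and a list of 6 genes can give 0 calls at such shares. The median of the ATPases was 0.16. Psmc4 was nearest to the threshold at 0.37 (SE 0.14, adjusted p = 0.0517). Psmc1 had 47.01, 60.18, 59.28 and 83.45 CPM in bleomycin replicates 5 to 8, against 60.72 to 68.01 CPM in saline (-0.04, SE 0.13, adjusted p = 0.847), so its bleomycin libraries spanned the saline range on both sides. Whether the ATPases differ from the non-ATPases in their change was not tested.

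The other regulators and the assembly factors gave no call by edgeR, where 17.5% of all tested genes rose and 13.4% fell. The nuclear activator Psme4 was at 0.10 (SE 0.08), and the inhibitor Psmf1 at 0.19 (SE 0.14). The 20S assembly chaperones Psmg1 to Psmg4 ranged from -0.18 to 0.47, and the 19S assembly chaperones Psmd5, Psmd9 and Psmd10 from -0.0020 to 0.25. None of these 9 genes, nor Psme3, had an unadjusted p under 0.05, and DESeq2 and limma-voom called 0 of them. The SE for Psmg3 was 0.36 at 2.39 CPM in batch 1 bleomycin and 2.31 CPM in saline, so a change of moderate size was not detectable at this depth.

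Core subunits often shared their lowest batch 1 bleomycin library, while the highest varied. Of the 31 alpha, constitutive beta, ATPase and non-ATPase genes, 23 had their lowest batch 1 bleomycin level in replicate 5. The highest lay in replicate 8 for 16, in replicate 6 for 11, in replicate 7 for 3 and in replicate 5 for 1. The same shares over all tested genes were not counted. The summed level of these 31 genes was 1257, 1532, 1452 and 1621 CPM in bleomycin replicates 5 to 8, against 1213, 1230, 1213, 1298 and 1181 CPM in saline. Replicate 5 therefore lay within the saline range, while the 3 others lay above it. The sum of Psmb8, Psmb9 and Psmb10 followed another order, with 74.65, 83.30, 103 and 74.75 CPM in bleomycin replicates 5 to 8 and 44.94 to 50.32 CPM in saline, all apart. Replicate 8 had the smallest scaling factor of the 13 libraries (0.853) and replicate 5 one of the larger (1.12), and replicate 5 had the highest sum of heart markers (3181 CPM). The part of the scaling and of heart tissue in these sums was not tested.

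**Figure D4:**
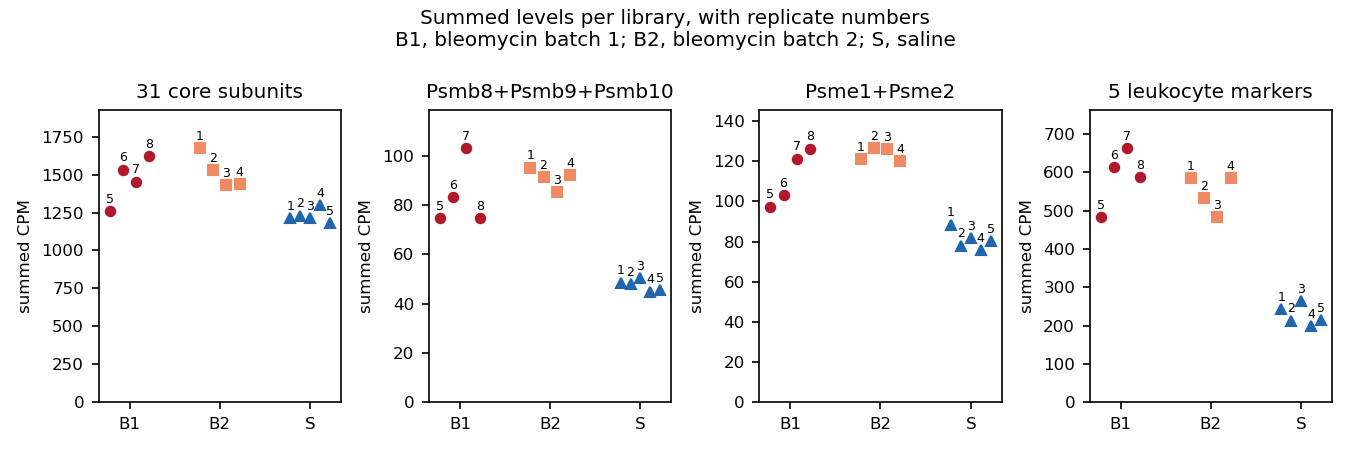
Summed CPM (vertical axis, from 0) per library of the 31 core subunits, of Psmb8, Psmb9 and Psmb10, of Psme1 and Psme2, and of 5 leukocyte markers, with replicate numbers. The core sum of bleomycin replicate 5 (1257 CPM) lies inside the saline range, while all bleomycin libraries lie above saline in the other panels.

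The batch 2 libraries allow the levels of another set of bleomycin lungs to be set beside those of batch 1. By edgeR 0 of 49 members were called between batch 2 and batch 1 bleomycin, where 1.68% of all tested genes were called (0.547% higher and 1.13% lower), and DESeq2 and limma-voom also gave 0. The members' median difference was 0.06 (range -0.51 to 0.44), and 5 had an unadjusted p under 0.05: Psme4 at -0.29, Psmb10 at 0.44, Psmd11 at -0.23, Psmd9 at 0.34 and Psmg4 at -0.51. Without bleomycin replicate 8, Psme4 was called lower in batch 2. In 24 of the 49 members every batch 2 bleomycin library lay above every saline library, among them all 5 inducible genes, where 15.3% of all tested genes did so. In 2 members, Psmg4 and Psme4, every batch 2 bleomycin library lay below every saline library, where 12.9% of all tested genes did so. Both bleomycin sets were set against the same saline libraries. In batch 1, every bleomycin library lay above every saline library in 12 members, where 14.0% of all tested genes did so. Every one lay below in 0 members, where 11.3% of all tested genes did so. Batch 2 has no saline library, so treatment and batch cannot be told apart in its comparison with saline.

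Partners of the proteasome outside the naming rule rose about as often as tested genes in general. Of 28 listed genes for ubiquitin, shuttle factors, assembly and transcriptional control, 27 were found under the listed symbol, and 5 rose and 0 fell by edgeR, where 17.5% of all genes rose, with a median log2 change of 0.07. Vcp, the segregase that extracts ubiquitinated proteins, had 190.5, 201.1, 197.2 and 223.4 CPM in bleomycin replicates 5 to 8, against 119.4, 113.6, 124.6, 129.7 and 132.9 CPM in saline (0.71, SE 0.08, adjusted p = 1.21e-05). The ubiquitin-activating enzyme Uba1 rose by 0.41 (SE 0.09, adjusted p = 0.0034), and the Vcp cofactor Nploc4 by 0.31 (SE 0.10, adjusted p = 0.0276). The 19S ubiquitin receptor Adrm1 and the protease Ddi2, which activates the proteasome gene regulator Nfe2l1, were the other 2. Nfe2l1 itself was at -0.18 (SE 0.09, adjusted p = 0.149). Adrm1, Ddi2 and Nfe2l1 were named after their values were seen.

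Genes of the interferon-gamma axis and of class I peptide loading were mostly higher, as 16 of 19 tested genes rose and 0 fell, with a median log2 change of 0.51, where 17.5% of all genes rose. No gene of this list had an unadjusted p under 0.05 in the lower direction. Irf8, a myeloid and interferon-responsive transcription factor, had 72.02 to 93.60 CPM in batch 1 bleomycin and 28.16 to 33.71 CPM in saline (1.34, SE 0.10, adjusted p = 4.39e-07). Nlrc5, the transactivator of class I genes and of Psmb9, had 67.28, 71.53, 89.07 and 70.53 CPM in bleomycin replicates 5 to 8, against 30.94, 32.12, 42.58, 43.56 and 34.49 CPM in saline (1.02, SE 0.12, adjusted p = 1.47e-05). H2-K1, a class I heavy chain, had 366.2, 338.8, 409.1 and 466.9 CPM in bleomycin replicates 5 to 8, against 195.5, 218.5, 243.4, 211.2 and 232.4 CPM in saline (0.84, SE 0.11, adjusted p = 3.68e-05). These 3 genes had the lowest p of the list. Replicate 7 was the highest batch 1 bleomycin library for Irf8 and Nlrc5, and replicate 8 for H2-K1. H2-K1 was also higher in batch 2 than in batch 1 bleomycin (0.47, SE 0.11, adjusted p = 0.0492). Ifng had 4 counts in all, in 2 of 13 libraries, so its level could not be compared. Irf1, which drives Psmb9 transcription, was at -0.05 (SE 0.14, adjusted p = 0.797). Ifng, Irf1 and Tap1 were named after their values were seen, Tap1 for the promoter it shares with Psmb9.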

How the data were processed

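The table deposited by the authors holds whole-number counts per gene symbol, and the submitters' processing notes name featureCounts 2.0.3, STAR 2.7.10b and cutadapt 4.4 with build mm39. The strand setting and the annotation are not stated there. In each library 78.4% to 86.1% of the counts between 1 and 10 were even, as when the mates of a read pair count separately, so counts are not independent molecules. The deposited normalized table was not used here.

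Genes were kept with filterByExpr over batch and treatment (20468 of 54513), scaled with TMM and fitted in edgeR 4.0.16 under R 4.3.3 with batch and treatment as additive terms (robust glmQLFit, glmQLFTest). The treatment effect rests on 4 bleomycin and 5 saline libraries of batch 1, and batch 2 adds to the estimate of spread. The SE is the log2 change divided by the root of its F statistic. The biological coefficient of variation was 0.306. DESeq2 1.42.0 and limma-voom (limma 3.58.1) were alternatives, with RLE scaling, no filter, batch 1 only, no batch term, a replicate block in place of the batch term, protein-coding genes only and each library left out. The 5 ratios were tested by exact two-sided permutation over all splits of 4 and 5 libraries.

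Members, lists, pairs and the rule for named genes were chosen with earlier results of these data known. Named genes were the 5 inducible genes, their 4 counterparts, the 12 other members of lowest p, the highest and lowest per length, and up to 3 of each list by lowest p. Other members were named to account for all of them. Exon lengths and gene types came from GENCODE M21 by symbol (48 of 49 members) and promoters from RefSeq (GRCm38.p6). Both differ in build from the counts, so no coordinates were shared.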

Additional observations from a re-analysis of the deposited data

Results flagged for a closer look

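Among 69 sets of values examined for a sample far from its group (23 named members in 3 sets of libraries), 1 stood apart, where chance gives about 1 in 20. Psme3 had 68.44 CPM in bleomycin replicate 6, and the other batch 1 bleomycin libraries had 48.37 to 51.56 CPM. The gap to the nearest library was 0.841 of the group's range. This library also gave the lowest Psme1 to Psme3 and Psme2 to Psme3 ratios of the batch 1 bleomycin set (0.946 and 0.561).
Without replicate 6 the differences of these ratios between batch 1 bleomycin and saline were 0.63 and 0.35 (exact permutation p = 0.0179, adjusted p = 0.0446 for each), against 0.45 and 0.27 with it. Leaving out the lowest ratios of the set raises both differences by construction.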

How the results depend on the processing

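Of 18 called members, 8 were called under all 21 alternatives, and 3 (Psmd1, Psma2 and Psme2) under fewer than 11. The number of members called was 13 with RLE scaling, 14 with DESeq2 and with protein-coding genes only, 19 with limma-voom, 18 with no filter, 12 in batch 1 only and 26 with no batch term, and leaving out 1 library gave 9 to 22. Between the bleomycin batches leaving out 1 library gave 0 to 1 called members. Genes called in all were 4747 to 7141, against 6319. The ratio differences ranged, leaving out 1 library, over 0.37 to 0.58 for Psmb8/Psmb5, 0.24 to 0.59 for Psmb9/Psmb6, -0.03 to 0.15 for Psmb10/Psmb7, 0.31 to 0.63 for Psme1/Psme3 and 0.17 to 0.35 for Psme2/Psme3, and only Psmb10/Psmb7 changed sign. Of the uncalled members, 12 changed sign under some alternative, and the cause was not tested. Of those named by the rule, Psmc1 was at 0.01 with no batch term and at -0.24 to 0.08 leaving out 1 library. Psme3 was at -0.01 with no batch term and at -0.04 to 0.15 leaving out 1 library. Psmg3 was at -0.01 with RLE scaling and with protein-coding genes only, -0.02 with DESeq2, -0.11 with limma-voom and -0.16 to 0.30 leaving out 1 library. Same-numbered samples did not deviate together (correlations of deviations -0.11, -0.35, -0.06, -0.12 and 0.04 for numbers 1 to 5). So few values cannot settle whether the numbers mark pairs. With the replicate block 17 members were called, 16 higher and 1 lower (Psmg4, -0.69, adjusted p = 0.0249, range over alternatives 0.0249 to 0.917). In this fit 5 of the 18 calls were lost (Psmd1, Psmd14, Psma2, Psmb2 and Psme2), and 4747 genes were called in all. Psme3 was at -0.12 and Psmb10 passed at 0.59. Only replicate numbers 1 to 5 occur in both treatments, so the treatment effect of the block fit rests on them. Of their bleomycin libraries all but replicate 5 are of batch 2, while their saline libraries are of batch 1. Batch and treatment are therefore mixed in the block fit, and its calls cannot be assigned to treatment alone. Depth limits the low members, of which Psmg3 had 574 counts over 13 libraries.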
